A study of Sus scrofa with 15 samples.

Results

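A set of 9 transcription factor genes that direct or adjust the hepatocyte programme was followed in the liver of piglets, namely HNF4A, FOXA1, FOXA2, FOXA3, ONECUT1, PROX1, CEBPA, CEBPB and CEBPD. They were chosen by name, and each was found by pairing its pig gene symbol with the Ensembl identifier in the deposited table. All 9 genes had a row among the 31908 genes of the table, each had exactly 1 row, and all 9 passed the filter on low counts. The piglets were growing males of Duroc x Large White x Landrace breeding. The LPS group was injected intraperitoneally with lipopolysaccharide (LPS), a cell wall component of Gram-negative bacteria, at 80 μg/kg, the control (CON) group received sterile saline instead, and the liver was taken 4 h later. Each group gave 3 libraries, which were the input fractions of an m6A immunoprecipitation experiment, that is, sonicated polyadenylated RNA of whole liver set aside before the antibody was added. CON replicates 1 and 2 are listed with 2 sequencing entries each and have 1 column of counts each.

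Hepatocytes keep their identity through a network of liver-enriched transcription factors that bind one another's promoters and act together on the same genes. FOXA proteins open compacted chromatin at liver enhancers, HNF4A is the nuclear receptor that holds the mature hepatocyte programme in place, and ONECUT1 and PROX1 take part in the choice between hepatocyte and bile duct fate. C/EBP proteins share one leucine zipper and bind the same motif, with CEBPA linked to the quiescent, metabolically active hepatocyte, and CEBPB and CEBPD linked to the acute-phase response that interleukin-6 and interleukin-1 set off.

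The CON libraries held 5927348 to 10351491 counts and the LPS libraries 4348478 to 19967417. Levels are given as CPM, that is, counts scaled to library size with TMM factors. Levels of different genes are compared as CPM per kilobase of the deposited gene length, except for percentiles of CPM. LPS replicate 2 was the LPS library most like the CON libraries. Its log2 CPM correlated at 0.923 to 0.945 with each CON library, but at 0.907 and 0.852 with LPS replicates 1 and 3, which correlated at 0.903 with each other (Pearson, over tested genes, which are not independent of one another). Results are given with and without it. Because it was singled out by its likeness to the CON libraries, leaving it out favours a difference between the groups, and values without it are no independent support for one. Of the 9 hepatocyte markers, 8 were abundant in every library, from albumin (ALB) at 12381 to 38011 CPM to the asialoglycoprotein receptor subunit ASGR1 at 103 to 344 CPM. The row paired with SERPINA1 was the exception, at 1.23 to 7.20 CPM. In bulk tissue, fewer cells of a type and less RNA per cell cannot be told apart.

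None of the 9 factors passed the test between the groups with all 6 libraries. CEBPB and CEBPD had the largest differences, each more than 2-fold higher on average in the LPS group, and in both the high values came from LPS replicates 1 and 3 while LPS replicate 2 lay within the CON range. Both passed the test only in the fit without LPS replicate 2, the library most like CON, apart from CEBPD when no filter on low counts was used. CEBPA, HNF4A, the FOXA genes, ONECUT1 and PROX1 did not pass with or without that library. In FOXA2, FOXA3, ONECUT1 and CEBPA, LPS replicates 1 and 3 lay on opposite sides of the CON mean.

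With edgeR's quasi-likelihood test, 0 of the 9 factors were called at an adjusted p below 0.05 and a fold above 1.5. Over the 12774 tested genes, 0.0548% were called higher and 0% were called lower in the LPS group. A looser threshold, an unadjusted p below 0.05, was passed by 2 of the 9, CEBPB and CEBPD, against 12.5% of the tested genes (6.18% higher and 6.33% lower). DESeq2 and limma-voom called 0 of the 9 as well, with 2 and 0 at an unadjusted p below 0.05, against 13.5% and 12.8% of the genes each tested. Over all genes, DESeq2 called 2.02% higher and 1.15% lower, and limma-voom called 0.0157% higher. In no factor did all 3 LPS values lie above all 3 CON values, as they did in 6.52% of the tested genes, and in none did they all lie below them, as they did in 9.8%. With LPS replicate 2 left out, edgeR called 2 of the 9 higher and 0 lower, where 3.76% of the tested genes were called higher and 3.45% lower. The number of calls over all genes rose from 7 to 982 without that library. Leaving out any one of the other 5 libraries gave 0 to 58 calls over all genes and 0 of the 9.

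CEBPB encodes the basic leucine zipper protein first known as a nuclear factor for interleukin-6. The gene (ENSSSCG00000034207, chromosome 17 from 51722426 to 51724305, plus strand, 1 exon block) stood at 167, 338 and 236 CPM in CON replicates 1, 2 and 3, and at 738, 228 and 741 CPM in LPS replicates 1, 2 and 3. LPS replicates 1 and 3 lay above every CON library, at 2.99 and 3.001 times the CON mean, and LPS replicate 2 lay within the CON range at 0.925 times that mean. The groups therefore overlapped. The mean was 247 ± 85.8 CPM in the CON group and 569 ± 295 CPM in the LPS group (SD, n = 3 each). The log2 fold change was 1.20 ± 0.48 (SE), with a 95% interval from 0.13 to 2.28 (adjusted p = 0.353 by edgeR). Without LPS replicate 2 it was 1.58 ± 0.38 (SE, adjusted p = 0.0307 by edgeR).

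CEBPD encodes a C/EBP protein that is made quickly during the acute-phase response. Its gene (ENSSSCG00000032367, chromosome 4 from 79872421 to 79873989, plus strand) had 193, 371 and 330.1 CPM in the 3 CON libraries, against 1348, 207 and 737 CPM in LPS replicates 1, 2 and 3. LPS replicate 1 was at 4.52 times and LPS replicate 3 at 2.47 times the CON mean. LPS replicate 2 was at 0.695 times that mean, within the CON range, so that the groups again overlapped. The mean was 298 ± 93.5 CPM in the CON group and 764 ± 571 CPM in the LPS group (SD, n = 3 each), and the log2 fold change was 1.36 ± 0.59 (SE), with a 95% interval from 0.045 to 2.67 (adjusted p = 0.385 by edgeR). Without LPS replicate 2 it was 1.81 ± 0.42 (SE, adjusted p = 0.0259 by edgeR). It also passed with all 6 libraries when no filter on low counts was used, with a log2 fold change of 1.33 (adjusted p = 0.048 by edgeR).

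CEBPA, the C/EBP gene of the quiescent hepatocyte (ENSSSCG00000002866, chromosome 6 from 43083203 to 43085836, minus strand, 1 exon block), had 106, 127 and 255 CPM in the 3 CON libraries, against 204, 289.9 and 41.6 CPM in LPS replicates 1, 2 and 3. The highest and the lowest of the 6 values were both in the LPS group, in replicates 2 and 3. LPS replicate 3 was at 0.256 times and LPS replicate 2 at 1.78 times the CON mean. The log2 fold change was 0.13 ± 0.62 (SE), with an interval from -1.26 to 1.53 (adjusted p = 0.955 by edgeR), and without LPS replicate 2 it was -0.41 with an interval from -1.80 to 0.98. The direction of CEBPA between the groups was therefore not resolved by these libraries.

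**Figure D1:**
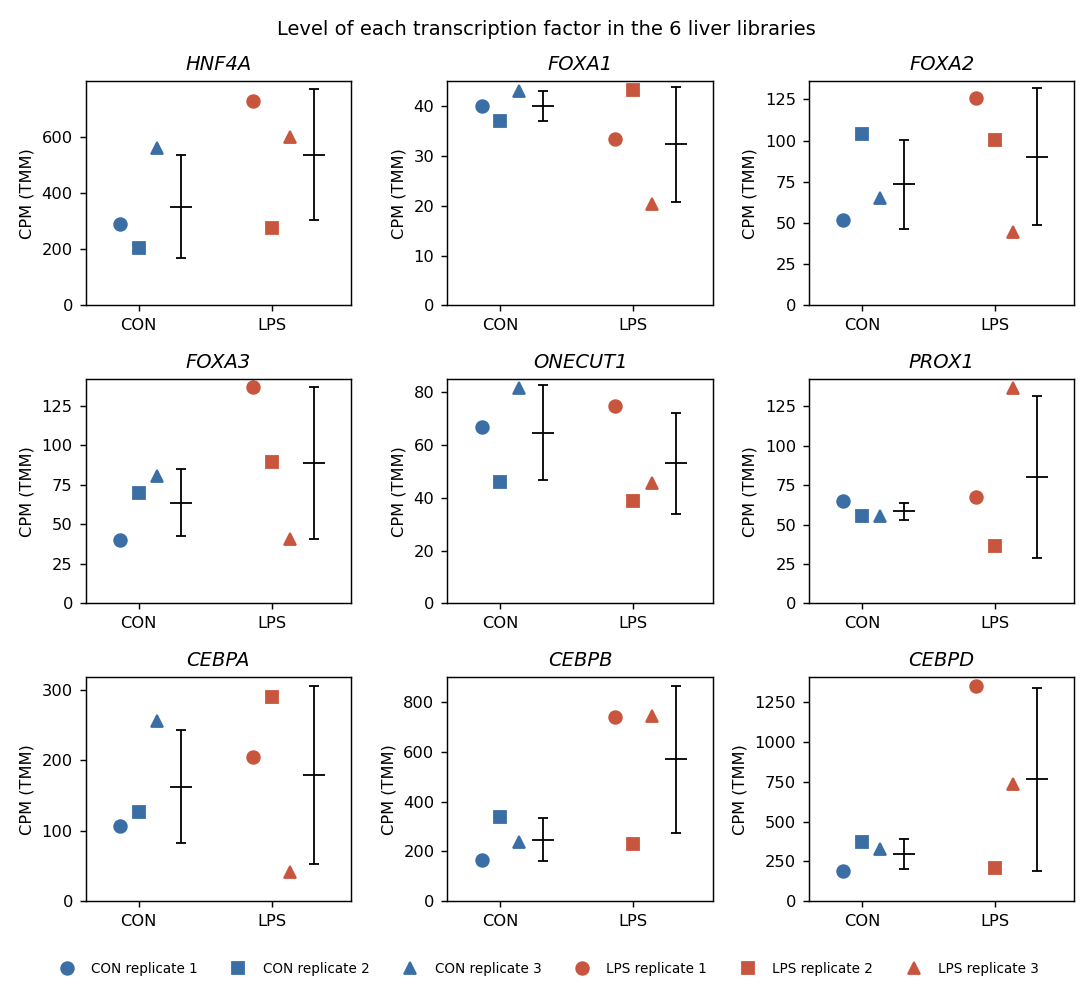
Level of each factor in CPM after TMM scaling (vertical axes, linear and starting at 0), with 1 point per library, circles, squares and triangles for replicates 1, 2 and 3, blue for CON and red for LPS; black bars show the mean and SD of each group (n = 3). In CEBPB and CEBPD the LPS circle and triangle lie above all CON points and the LPS square lies among them.

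Levels of the 3 C/EBP genes can be set against one another within a library, where library scaling cancels. Per kilobase, CEBPD held the largest share of the 3 genes' counts and CEBPB the next largest in each of the 6 libraries. CEBPA held 14.5%, 9.36% and 20.3% in the 3 CON libraries, against 5.13%, 28.1% and 1.61% in LPS replicates 1, 2 and 3. The share of CEBPA was thus lowest in LPS replicates 1 and 3 and highest in LPS replicate 2, with the CON libraries between them. CEBPD held 53.5%, 55.7% and 53.4% in the 3 CON libraries, against 68.9%, 40.9% and 58.1% in LPS replicates 1, 2 and 3.

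The ratio of CEBPB to CEBPA per kilobase was 2.20, 3.73 and 1.30 in the 3 CON libraries, against 5.06, 1.10 and 24.9 in LPS replicates 1, 2 and 3. The difference of the mean log2 ratio, LPS minus CON, was 1.23 (two-sided exact permutation p = 0.5, n = 3 each). The ratio of CEBPD to CEBPA was 3.69, 5.95 and 2.64 in the 3 CON libraries, against 13.4, 1.45 and 36.0 in LPS replicates 1, 2 and 3, a difference of 1.20 in mean log2 ratio (exact permutation p = 0.5). In both ratios LPS replicates 1 and 3 lay above every CON library and LPS replicate 2 below every CON library. The ratio of CEBPB to HNF4A was 1.67, 4.78 and 1.23 in the 3 CON libraries, against 2.95, 2.40 and 3.60 in LPS replicates 1, 2 and 3, a difference of 0.46 (exact permutation p = 0.5), and all 3 LPS values fell inside the CON range. The adjusted p over these 3 ratios was 0.5 for each, and with 3 libraries against 3 the exact permutation test cannot go below 0.1. Without LPS replicate 2 the differences for CEBPB and CEBPD over CEBPA were 2.35 and 2.51, and without LPS replicate 3 they were 0.10 and 0.19.

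**Figure D2:**
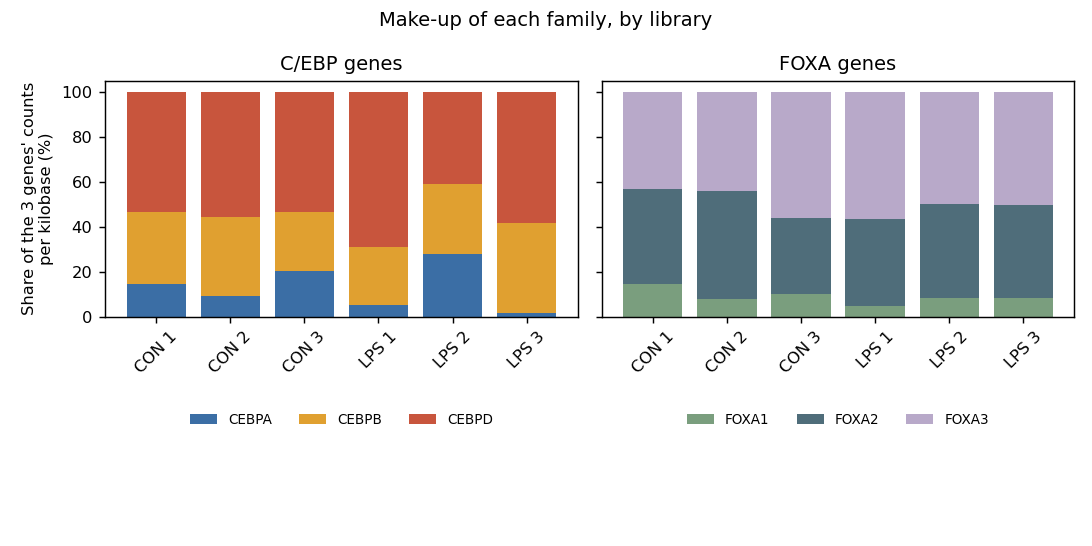
Share in percent of each gene in the summed counts per kilobase of its family (vertical axis), for the C/EBP genes on the left and the FOXA genes on the right, with 1 stacked bar per library. CEBPA runs from 1.61% in LPS replicate 3 to 28.1% in LPS replicate 2, while the FOXA bars differ less between libraries.

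HNF4A, the nuclear receptor at the centre of the hepatocyte network (ENSSSCG00000007371, chromosome 17 from 46783777 to 46847503, plus strand), had 291, 206 and 559 CPM in the 3 CON libraries, against 729.6, 277 and 600.5 CPM in LPS replicates 1, 2 and 3. LPS replicates 1 and 3 lay above every CON library, but CON replicate 3 lay close below them and LPS replicate 2 below CON replicate 1. The mean was 352 ± 184 CPM in the CON group and 536 ± 233 CPM in the LPS group (SD, n = 3 each). The log2 fold change was 0.61 ± 0.47 (SE), with an interval from -0.45 to 1.66 (adjusted p = 0.637 by edgeR), and 0.92 without LPS replicate 2 (adjusted p = 0.226 by edgeR).

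FOXA1 (ENSSSCG00000037634, chromosome 7 from 62471228 to 62479223, plus strand) is one of the pioneer factors that mark liver enhancers. It had 39.9, 37.0 and 42.9 CPM in the CON replicates, a coefficient of variation of 7.37%, and 33.4, 43.2 and 20.3 CPM in LPS replicates 1, 2 and 3. LPS replicates 1 and 3 lay below every CON library and LPS replicate 2 just above them. The log2 fold change was -0.31 ± 0.34 (SE), with an interval from -1.06 to 0.44 (adjusted p = 0.745 by edgeR), and -0.58 without LPS replicate 2 (adjusted p = 0.346 by edgeR). FOXA1 had the smallest counts of the 9 factors, down to 153 in LPS replicate 1, for which the exact Poisson 95% interval is 130 to 179 counts and covers counting error only.

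FOXA2 (ENSSSCG00000007114, chromosome 17 from 29997400 to 30001707, minus strand), which also governs fasting metabolism and bile acid handling, had 52.0, 104 and 65.1 CPM in the 3 CON libraries, against 126, 100.3 and 44.4 CPM in LPS replicates 1, 2 and 3. LPS replicate 1 held the highest and LPS replicate 3 the lowest of the 6 values. Between the groups the log2 fold change was 0.29 with an interval from -0.68 to 1.26 (adjusted p = 0.816 by edgeR), and it was -0.019 without LPS replicate 1. FOXA3 (ENSSSCG00000003092, chromosome 6 from 52181114 to 52188777, plus strand), a FOXA gene of the differentiated hepatocyte, had 39.9, 70.1 and 80.8 CPM in the 3 CON libraries, against 137, 89.3 and 40.7 CPM in LPS replicates 1, 2 and 3. It showed the same order as FOXA2 within the LPS group, with replicate 1 highest and replicate 3 lowest. Its log2 fold change was 0.48 with an interval from -0.54 to 1.51 (adjusted p = 0.705 by edgeR).

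Within the FOXA family, FOXA1 held 4.66% to 14.7% of the counts per kilobase, FOXA2 33.7% to 48.4% and FOXA3 43.3% to 56.6% over the 6 libraries. The LPS shares of FOXA2, at 38.8%, 41.8% and 41.1%, lay inside its CON range. FOXA1 was the smallest of the 3 in each library.

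ONECUT1, also known as HNF6 (ENSSSCG00000004616, chromosome 1 from 118913785 to 118954614, plus strand), had 66.6, 45.8 and 81.4 CPM in the 3 CON libraries, against 74.8, 38.6 and 45.5 CPM in LPS replicates 1, 2 and 3. LPS replicates 2 and 3 lay below the lowest CON value, replicate 3 only barely, and LPS replicate 1 lay within the CON range. The log2 fold change was -0.29 ± 0.36 (SE), with an interval from -1.09 to 0.51 (adjusted p = 0.778 by edgeR).

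PROX1, a homeobox factor of hepatocytes and of lymphatic endothelium (ENSSSCG00000015584, chromosome 9 from 129532164 to 129580979, minus strand), was the gene with the tightest CON values after FOXA1, at 64.7, 55.6 and 55.2 CPM. In LPS replicates 1, 2 and 3 it had 67.8, 36.5 and 137 CPM. LPS replicate 3 stood at 2.34 times the CON mean, LPS replicate 2 at 0.624 times and LPS replicate 1 barely above the CON range. Between the groups the log2 fold change was 0.46 ± 0.44 (SE), with an interval from -0.53 to 1.45 (adjusted p = 0.708 by edgeR). It was 0.82 without LPS replicate 2 (adjusted p = 0.208 by edgeR) and -0.15 without LPS replicate 3. Of the 9 listed endothelial and lymphatic markers 7 were tested, and 2 had a positive and 5 a negative log2 fold change, with a median of -0.48. With edgeR 0 of the 7 were called, and DESeq2 and limma-voom called 0. At an unadjusted p below 0.05, 1 was higher (LYVE1) and 2 lower (FLT4 and KDR), against 6.18% and 6.33% of the tested genes. LYVE1 had 10.1, 10.8 and 16.3 CPM in the 3 CON libraries, against 20.1, 19.5 and 43.2 CPM in LPS replicates 1, 2 and 3. FLT4 had 32.8, 34.8 and 51.9 CPM against 12.0, 29.4 and 6.42 CPM. Their log2 fold changes were 1.16 and -1.33. Without LPS replicate 2, where PROX1 was at 0.82, 2 of the 7 were called lower, against 3.45% of the tested genes. The median of the 7 was then -1.08. Their summed level ran from 217 to 450.1 CPM in the CON group and from 137 to 266 CPM in the LPS group, with 218 CPM in LPS replicate 3. These sums depend strongly on 1 marker, CLEC4G. It had 15.2, 25.0 and 260 CPM in the 3 CON libraries, against 12.6, 82.9 and 80.4 CPM in LPS replicates 1, 2 and 3. The part of endothelial cells in the PROX1 values was not tested.

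**Figure D3:**
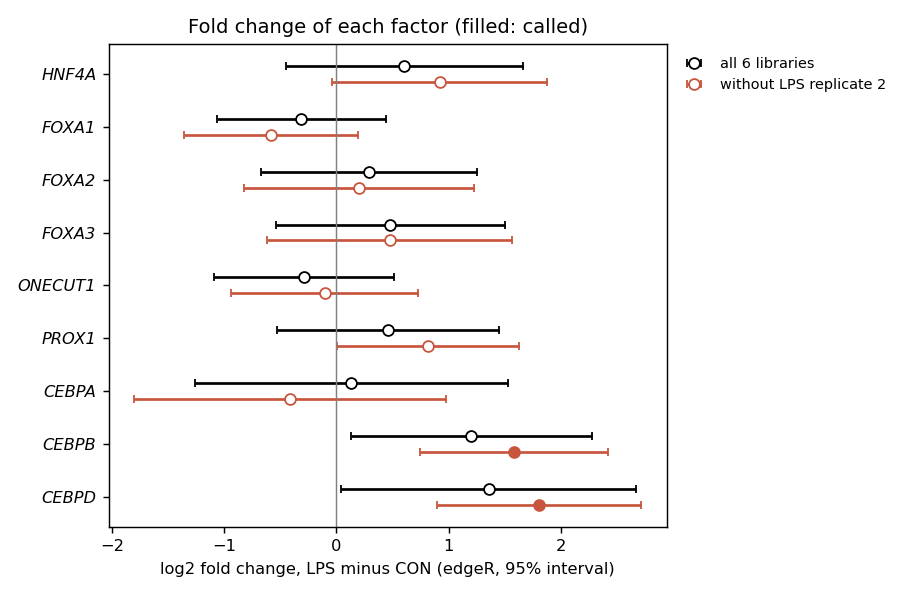
Log2 fold change of each factor, LPS minus CON, with its 95% interval from edgeR, for all 6 libraries in black and without LPS replicate 2 in red; filled points passed an adjusted p below 0.05 and a fold above 1.5. The 2 filled points are CEBPB at 1.58 and CEBPD at 1.81, both without LPS replicate 2.

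The 9 factors were not placed alike in the 3 LPS libraries. In LPS replicate 1, 6 of the 9 factors lay above all 3 CON values and 1 lay below them, where 32.1% of the tested genes lay above and 37.1% below. In LPS replicate 2, 3 lay above and 2 below, against 23.3% and 26.5% of the tested genes. In LPS replicate 3, 4 lay above (HNF4A, PROX1, CEBPB and CEBPD) and 4 below (FOXA1, FOXA2, ONECUT1 and CEBPA), against 34.9% and 37.2%. Fold changes of the 9 factors had a median of 0.46 on the log2 scale, and 7 of the 9 were positive, beside a median of 0.0057 over all tested genes, of which 6448 were positive and 6326 negative. The median of the 9 was 0.037 without LPS replicate 1 and 0.23 without CON replicate 1. None of the 9 fold changes behind the median of 0.46 passed the test.

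By mean CPM in CON liver, all 9 factors lay in the upper part of the tested genes, from the 76.1 percentile for FOXA1 to the 98.0 percentile for HNF4A. This ranking does not allow for gene length, and percentiles per kilobase were not computed. Per kilobase the order of the CON means was CEBPD (230.1 ± 72.2 CPM per kilobase), CEBPB (131 ± 45.6), HNF4A (64.3 ± 33.7), CEBPA (61.7 ± 30.5), FOXA3 (33.1 ± 11.04), FOXA2 (28.5 ± 10.5), PROX1 (15.4 ± 1.42), ONECUT1 (11.4 ± 3.15) and FOXA1 (7.02 ± 0.517; SD, n = 3 each). The CON ranges of neighbours in this order overlapped from CEBPD down to FOXA2. They did not overlap between FOXA2 and PROX1, between PROX1 and ONECUT1, or between ONECUT1 and FOXA1. In the LPS group CEBPD and CEBPB stayed at the head of the order in each library. In LPS replicate 3 CEBPA was at rank 7, with 15.8 CPM per kilobase, and PROX1 at rank 4, with 36.2 CPM per kilobase.

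The likeness of the factors over the 6 libraries was measured as the root mean square difference of log2 CPM profiles, each centred on its own mean. Of 10755 other genes that were tested and carry a symbol, CEBPB ranked 6 for CEBPD, at a difference of 0.33 on the log2 scale, and CEBPD ranked 50 for CEBPB. FOXA2 and FOXA3 differed by 0.29, with FOXA2 ranked 182 for FOXA3 and FOXA3 ranked 286 for FOXA2. CEBPA was far from both other C/EBP genes, ranked 9347 for CEBPD and 9801 for CEBPB. Genes nearest to CEBPD were PIM3, a kinase gene (0.26), UBE2S, a ubiquitin-conjugating enzyme gene (0.30) and SBNO2 (0.30). Those nearest to CEBPB were PKIB (0.14), SLC22A23 (0.15) and MARCKS (0.19), those nearest to CEBPA were COMP (0.22), PHF21B (0.23) and TRIM65 (0.26), and those nearest to PROX1 were CCT4 (0.075), CCNL1 (0.11) and DNAJB5 (0.11). PKIB and PHF21B are low genes here, with PKIB at 0.536 to 3.004 CPM and PHF21B at 0.205 to 1.64 CPM.

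Signals known to act ahead of CEBPB and CEBPD were read from a list of 20 receptor, kinase and feedback genes. All 20 were tested, 15 had a positive and 5 a negative log2 fold change, and their median was 0.62, which fell to 0.20 without LPS replicate 3. None passed the edgeR test with all 6 libraries. At an unadjusted p below 0.05, 3 were higher and 0 lower, against 6.18% and 6.33% of the tested genes. Without LPS replicate 2, 2 were called higher and 0 lower, against 3.76% and 3.45%. DESeq2 and limma-voom called 0 of the 20. SOCS3, the feedback inhibitor of interleukin-6 receptor signaling, had 17.5, 45.1 and 27.6 CPM in the 3 CON libraries, against 289, 18.8 and 627 CPM in LPS replicates 1, 2 and 3. Its log2 fold change was 3.38 ± 0.98 (SE, adjusted p = 0.230 by edgeR), and 3.94 without LPS replicate 2 (adjusted p = 0.00184 by edgeR). TRIB1, an adaptor that directs C/EBP alpha protein to degradation, had 32.8, 33.6 and 33.6 CPM in the 3 CON libraries, against 84.4, 26.7 and 128 CPM in LPS replicates 1, 2 and 3. Its log2 fold change was 1.26 (adjusted p = 0.343 by edgeR), 1.68 without LPS replicate 2 (adjusted p = 0.0152 by edgeR) and 0.75 without LPS replicate 3. As in CEBPB and CEBPD, the high libraries of SOCS3 and TRIB1 were LPS replicates 1 and 3. JAK1, the receptor subunit IL6R and the tumour necrosis factor receptor TNFRSF1A had log2 fold changes of 1.14, 0.74 and 0.65 and did not pass, and that of JAK1 was 0.37 without LPS replicate 3.

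Among 17 other C/EBP and basic leucine zipper genes, 13 were tested, 9 with a positive and 4 with a negative log2 fold change and a median of 1.13, which was 0.012 without LPS replicate 3. None passed with all 6 libraries. At an unadjusted p below 0.05, 4 were higher and 1 lower, against 6.18% and 6.33% of the tested genes. Without LPS replicate 2, 3 were called higher and 1 lower, against 3.76% and 3.45%. DESeq2 called 2 of the 13 higher, BATF3 and JUNB, against 2.02% of the genes it tested, and limma-voom called 0. BATF3, a dendritic cell and T cell factor, had 19.3, 28.9 and 25.9 CPM in the 3 CON libraries, against 312, 56.8 and 523 CPM in LPS replicates 1, 2 and 3, with a log2 fold change of 3.59 ± 0.70 (SE, adjusted p = 0.1002 by edgeR). ATF5, a factor abundant in liver, had 1451, 2967 and 2228 CPM in the 3 CON libraries, against 468, 1367 and 189 CPM in LPS replicates 1, 2 and 3. All 3 LPS values of ATF5 lay below all 3 CON values, and its log2 fold change was -1.72 (adjusted p = 0.3302 by edgeR), and -2.75 without LPS replicate 2 (adjusted p = 0.0131 by edgeR). The immediate early genes JUNB, FOS and ATF3 had log2 fold changes of 2.13, 2.60 and 2.45. FOS rested on LPS replicate 3, with 152 CPM there and 5.73 to 12.7 CPM in the other 5 libraries, and its log2 fold change was -0.14 without it. ATF3 was at 0.83 without LPS replicate 3, and in LPS replicate 2 it had 4.58 CPM, below every CON library. CEBPG, the dimer partner without an activation domain, had a log2 fold change near 0, with 31.4 to 58.3 CPM in the CON group and 21.4 to 75.5 CPM in the LPS group.

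Of 20 other liver-enriched and biliary factors 19 were tested, 9 with a positive and 10 with a negative log2 fold change and a median of -0.0015, which was -0.38 without LPS replicate 2. None passed with all 6 libraries. At an unadjusted p below 0.05, 0 were higher and 2 lower, against 6.18% and 6.33% of the tested genes. With LPS replicate 2 left out 1 was called higher and 1 lower, against 3.76% and 3.45%. DESeq2 and limma-voom called 0 of the 19. ZBTB20, a repressor of alpha-fetoprotein, had 19.0, 20.5 and 20.2 CPM in the 3 CON libraries, against 3.27, 13.3 and 7.44 CPM in LPS replicates 1, 2 and 3, with a log2 fold change of -1.31 (adjusted p = 0.293 by edgeR). It was -1.83 without LPS replicate 2 (adjusted p = 0.0303 by edgeR). TCF7L2, the Wnt effector of pericentral hepatocytes, had 46.3, 32.8 and 40.1 CPM against 19.6, 23.9 and 24.2 CPM, with a log2 fold change of -0.82 (adjusted p = 0.307 by edgeR). In both genes all LPS values lay below all CON values. These were the only 2 of the 19 factors with that order, which 9.8% of the tested genes had. NR5A2, which drives bile acid synthesis genes, had a log2 fold change of 0.96, 1.37 without LPS replicate 2 (adjusted p = 0.0463 by edgeR) and 0.35 without LPS replicate 3. ZHX2 and XBP1 had 1.02 and 0.60 and did not pass, and ZHX2 was at 0.21 without LPS replicate 3. In LPS replicate 3, 12 of these 19 factors lay below all CON values and 4 above, where LPS replicate 1 had 4 below and 8 above. Of the 9 factors, FOXA1, FOXA2, ONECUT1 and CEBPA were below all CON values in LPS replicate 3, and HNF4A, PROX1, CEBPB and CEBPD above them.

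**Figure D4:**
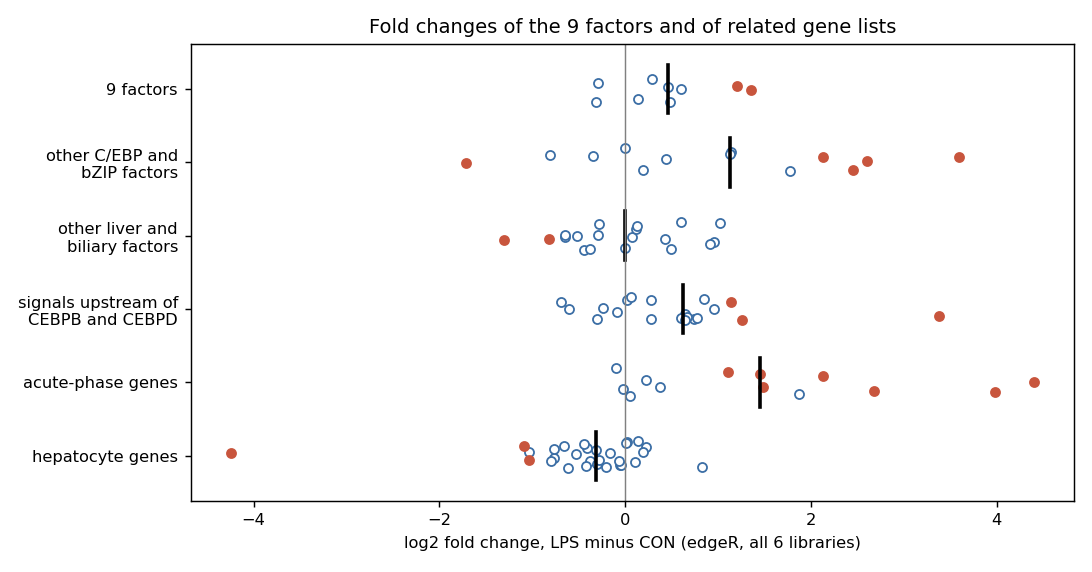
Log2 fold change of single genes, LPS minus CON, from edgeR with all 6 libraries (horizontal axis), for the 9 factors and 5 related lists; red points had an unadjusted p below 0.05 and black bars are the medians. The median was 0.46 for the 9 factors, 1.13 for the other C/EBP and basic leucine zipper factors, -0.0015 for the other liver and biliary factors, 0.62 for the upstream signals, 1.45 for the acute-phase genes and -0.31 for the hepatocyte genes.

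Genes that C/EBP factors are known to bind in the acute phase were read from a list of 21, of which 13 were paired with a row and tested, and the other 8 were not analysed here. Of these 13, 11 had a positive and 2 a negative log2 fold change, the median was 1.45 (0.89 without LPS replicate 3), and with edgeR 1 passed the test, LCN2, an iron-binding protein. At an unadjusted p below 0.05, 7 were higher and 0 lower, where 6.18% of all tested genes were higher. Without LPS replicate 2, 7 were called higher, where 3.76% of all tested genes were. DESeq2 called 6 of the 13 higher, against 2.02% of all genes it tested, and limma-voom called 0. ITIH4, a major pig acute-phase protein, had 2062, 1885 and 2820.0 CPM in the 3 CON libraries, against 12626, 5574 and 11326 CPM in LPS replicates 1, 2 and 3. Its log2 fold change was 2.13 ± 0.41 (SE, adjusted p = 0.0982 by edgeR). C-reactive protein (CRP) and fibrinogen gamma (FGG) also had every LPS value above every CON value, with log2 fold changes of 2.67 and 1.49. ITIH3 had 9.47 to 15.1 CPM in the CON group, 259 and 312 CPM in LPS replicates 1 and 3, and 6.22 CPM in LPS replicate 2. LPS replicate 2 therefore lay above the CON libraries in LCN2, ITIH4, CRP and FGG but not in CEBPB, CEBPD, SOCS3, TRIB1 or ITIH3. The list genes here were named by their small unadjusted p in the same fit, which favours genes that are high in all 3 LPS libraries. Of all 13, 6 had every LPS value above every CON value, against 6.52% of the tested genes. In HAMP, LPS replicate 2 had 21.4 CPM, below the 245 to 606 CPM of the CON libraries. The difference between the sets of genes was not tested.

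Genes of the differentiated hepatocyte, among them known targets of HNF4A, FOXA and CEBPA, were read from a list of 30, of which 29 were tested. Of these, 7 had a positive and 22 a negative log2 fold change, the median was -0.31 (-0.66 without LPS replicate 3), and none passed with all 6 libraries. At an unadjusted p below 0.05, 3 were lower and 0 higher, against 6.33% and 6.18% of the tested genes. Without LPS replicate 2, 1 was called lower, against 3.45%. DESeq2 called 1 lower, CYP7A1, against 1.15% of the genes it tested, and limma-voom called 0. In 10 of the 29 all LPS values lay below all CON values, against 9.8% of the tested genes. CYP7A1, the rate-limiting enzyme of bile acid synthesis, had 16.4, 21.2 and 16.0 CPM in the 3 CON libraries, against 0.436, 2.29 and 0.273 CPM in LPS replicates 1, 2 and 3. Its log2 fold change was -4.25 ± 0.68 (SE, adjusted p = 0.0668 by edgeR), and -5.73 without LPS replicate 2 (adjusted p = 0.000569 by edgeR). The kininogen gene KNG1, ASGR1, the urea cycle gene OTC and G6PC1, the last enzyme of glucose production, had log2 fold changes of -1.09, -1.03, -1.03 and -0.76 and did not pass. Without LPS replicate 1, OTC was at -0.64 and G6PC1 at -0.48. LPS replicate 1 had 20 of the 29 genes below all CON values, LPS replicate 2 had 18 and LPS replicate 3 had 12. Of the 9 factors, CEBPA, FOXA1 and FOXA2 were lowest in LPS replicate 3, where HNF4A, PROX1, CEBPB and CEBPD lay above all CON values. Any link between the levels of the factors and those of the hepatocyte genes was not tested.

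Markers of other liver and blood cells also differed in level between libraries. Of the 11 listed neutrophil markers, which include CEBPE, 9 had a row and 6 were tested, of which 5 had a positive log2 fold change, and S100A8 passed the edgeR test. DESeq2 called 3 of the 6 higher (CSF3R, S100A8 and S100A12), against 2.02% of the genes it tested, and limma-voom called 0. Without LPS replicate 2 edgeR called 4 higher, against 3.76% of the tested genes. The summed level of the 9 was 31.1 to 62.4 CPM in the CON group and 192, 111 and 338 CPM in LPS replicates 1, 2 and 3, so every LPS library lay above every CON library. Among defining markers, MMP8 had 0 counts in each CON library and 18, 5 and 271 counts in the LPS replicates, while MPO had 13 or fewer counts and CEBPE, the granulocyte C/EBP gene, 4 or fewer in each library. CEBPB and CEBPD are also made by myeloid cells, and the part of these cells in their levels was not tested. Of the cholangiocyte markers 8 were tested, 7 with a positive log2 fold change. With edgeR 0 were called and 4 were higher at an unadjusted p below 0.05, against 6.18% of the tested genes. DESeq2 called 2 higher (CLDN4 and KRT7), against 2.02% of the genes it tested, and limma-voom called 0. Without LPS replicate 2 edgeR called 2 higher, against 3.76%. In 3 of the 8 the lowest LPS value exceeded the highest CON value, as in 6.52% of the tested genes. The list stood at a summed 99.0 to 120 CPM in the CON group and 519, 202 and 260 CPM in LPS replicates 1, 2 and 3. CLDN4 alone had 50.7, 48.3 and 78.0 CPM in the 3 CON libraries, against 440, 143 and 102 CPM in LPS replicates 1, 2 and 3. Of the markers of Kupffer cells or macrophages 10 were tested, 1 with a positive and 9 with a negative log2 fold change. With edgeR 0 were called, and 1 was higher and 2 lower at an unadjusted p below 0.05, against 6.18% and 6.33%. DESeq2 and limma-voom called 0. The 10 summed to 2464 to 4030 CPM in the CON group and 2718 to 4196 CPM in the LPS group. Much of this was the positive gene, CD14, with 518, 818 and 821 CPM in the CON libraries, against 1354, 805 and 2328 CPM in LPS replicates 1, 2 and 3. The 8 stellate cell or fibroblast markers tested were split, 4 positive and 4 negative, and the list summed to 952 to 1355 CPM in the CON group and 706 to 1489 CPM in the LPS group. The 9 hepatocyte markers were tested, 3 positive and 6 negative, at a summed 66283 to 85922 CPM in the CON group and 41549, 51265 and 84777 CPM in LPS replicates 1, 2 and 3. The part of each of these cell types in the values of the 9 factors was not tested.

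No other gene of the deposited table overlapped any of the 9 factors. The nearest was a gene without a symbol 272 bases from FOXA1, with 0.218 to 0.804 CPM, and SYMPK and SPIDR lay 823 and 839 bases from FOXA3 and CEBPD. SPIDR had 10.2 to 15.1 CPM in the CON group and 14.4 to 30.2 CPM in the LPS group.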

How the data were processed

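The input libraries were deposited by the authors as 1 table of raw counts for 31908 Ensembl pig genes, without normalization, with coordinates and lengths. The submitters' processing notes name cutadapt 1.9.3 and HISAT2, and list the builds galGal6 and hg38, neither of which is a pig genome. The counting program, its strand setting and the pig build were not given in the sources used here, so coordinates are those of the deposited table. Their spans overlap those of the same symbol in RefSeq Sscrofa11.1 for 13674 of 13830 symbols and for all 9 factors. The library kit was directional. Unmapped sample columns numbered 0. The m6A-IP libraries were not analysed here. No sequence of these genes was used here, so GC content was not checked.

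Tests used edgeR 4.0.16 (R 4.3.3), namely filterByExpr with a minimum count of 10 (12774 genes), TMM factors, robust dispersions, glmQLFit and glmQLFTest. A call needed a Benjamini-Hochberg adjusted p, over all tested genes, below 0.05 and a fold above 1.5. Standard errors (SE) were derived from the fold change and edgeR's F. Whether the libraries of a group came from separate piglets is stated only through their replicate numbers, so p-values measure the spread between these libraries. Ratios used counts plus 1 per kilobase and a two-sided exact permutation test (scipy 1.17.1). The fits were also run on simulated data with planted changes larger than those of the factors. That run does not show whether changes as small as theirs would be called. Alternatives were RLE factors, total counts, no filter, a minimum of 10 counts in all libraries, DESeq2 1.42.0 on the filtered genes, limma-voom (limma 3.58.1), a replicate block, no fold threshold and leaving out each library.

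The 9 factors and the gene lists were chosen with earlier results of these data known, and the lists were written from general knowledge. Genes named are all 9 factors, up to 5 genes per list by smallest unadjusted p, the 3 genes nearest in profile to each of the 4 factors of widest range, and genes overlapping a factor. CEBPG, the single marker genes and the nearest neighbours on the chromosome were chosen after their values were seen. Symbols came from a table that pairs 15029 identifiers. Not every listed gene has its own values printed here.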

Additional observations from a re-analysis of the deposited data

How the results depend on the processing

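With all 6 libraries edgeR called 7 genes. Total-count scaling called 12, testing without a filter 885, requiring 10 counts in all libraries 0, DESeq2 404 and limma-voom 2. Leaving out 1 library at a time gave 0 to 982 genes, the lowest without any one CON replicate and the highest without LPS replicate 2, and 58 without LPS replicate 3. Of the 9 factors 0 were called with all 6 libraries, 1 without the filter on low counts (CEBPD), and 0 to 2 when 1 library was left out, with 2 without LPS replicate 2 (CEBPB and CEBPD) and 0 without each of the other 5. Under the 13 alternatives CEBPB ranged from 0.98 to 1.58 and CEBPD from 0.68 to 1.81 in log2 fold change, the latter lowest without LPS replicate 1. Under all 13, HNF4A was positive (0.33 to 1.14) and FOXA3 too (0.037 to 0.84), while FOXA1 (-0.58 to -0.046) and ONECUT1 (-0.61 to -0.061) were negative. The direction of CEBPA turned under limma-voom (-0.15). With 1 library left out it also turned in CEBPA (-0.41 to 0.63, negative without CON replicate 1, CON replicate 2 or LPS replicate 2), FOXA2 (-0.019 to 0.63, negative without LPS replicate 1), PROX1 (-0.15 to 0.82) and FOS (-0.14 to 3.14), the last pair negative without LPS replicate 3. Why these values moved was not tested. Total-count scaling shifted the median of all genes to -0.12, and relative to that median CEBPB was 1.14 and CEBPD 1.35. The median of the 9 factors ranged from 0.037 to 0.63. That of the other C/EBP and basic leucine zipper factors fell from 1.13 to 0.012 without LPS replicate 3. LCN2 no longer passed under 6 alternatives. The 3 ratios kept their direction under each alternative, between 0.10 and 2.35 for CEBPB over CEBPA, 0.19 and 2.51 for CEBPD over CEBPA and 0.057 and 1.03 for CEBPB over HNF4A when 1 library was left out.

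Deviations of same-numbered CON and LPS libraries from their group means correlated at -0.24, 0.22 and 0.029 over genes. Those of different-numbered libraries correlated at -0.25 to 0.22, so these values cannot show whether the numbers pair the samples. The paper describes random assignment of piglets to the groups and unpaired tests. The fit with a replicate block called 51 genes and 0 of the 9 factors, with CEBPA at -0.017. The block left the 3 ratio differences as they were (exact permutation p = 0.75 each). The 3 libraries per group and a depth that differs between LPS libraries limit the precision.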

Other observations

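The gene that follows PROX1 in the deposited table, ENSSSCG00000045230, has no symbol, lies 4542 bases from it on the opposite strand and was singled out after its values were seen. It had 20.2, 19.997 and 19.97 CPM in CON replicates 1, 2 and 3 and 4.36, 9.82 and 6.90 CPM in LPS replicates 1, 2 and 3, so that all LPS values lay below all CON values, where those of PROX1 overlapped. Its log2 fold change was -1.50 ± 0.37 (SE, adjusted p = 0.176 by edgeR). It was called lower by DESeq2 (-1.47, adjusted p = 0.0215), by edgeR with every gene tested (-1.53, adjusted p = 0.0136) and by edgeR without LPS replicate 2 (-1.80, adjusted p = 0.0226). Under the other 10 alternatives it ranged from -1.62 to -1.26 and was not called.

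A pair of liver factors outside the 9 was lowest in LPS replicate 3 among the 6 libraries, and was picked out after the values were seen. NR2F1 had 44.9 to 51.7 CPM in the CON group, 58.9 and 87.9 CPM in LPS replicates 1 and 2 and 4.78 CPM in LPS replicate 3. CREB3L3, a membrane-bound factor that drives acute-phase genes, had 377 to 419 CPM in the CON group, 373 and 418 CPM in LPS replicates 1 and 2 and 141 CPM in LPS replicate 3. LPS replicate 3 had the largest total count, 19967417, and the TMM factor farthest from 1, at 0.735. The part of depth or library preparation in these values was not tested.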
